A study of Homo sapiens with 12 samples.

Results

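The genes described here are 34 lysosome and autophagy genes, chosen by name as a gene group and read from 1 probe each, the brightest of the gene over all arrays. They are 34 of 20045 genes measured on Illumina expression arrays in KMS-11, a human multiple myeloma cell line known for a translocation that drives FGFR3. By role they comprise 19 enzymes of the lysosome lumen and their activators, 3 lysosomal membrane proteins, 5 genes of the vacuolar proton pump, 5 autophagy genes and 2 transcription factors, TFEB and TFE3.

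All cells of the study were first kept for 24 h in 1% fetal bovine serum, so every group, controls included, was starved of serum. They then received either the solvent DMSO or NSC12 at 6 µM, for 6 h or 12 h. NSC12 is an FGF trap, a small molecule that binds fibroblast growth factors outside the cell. The 4 groups (DMSO 6 h, NSC12 6 h, DMSO 12 h and NSC12 12 h) had 3 arrays each, 12 in all. All arrays come from 1 cell line, and whether the replicates came from separate cultures is not labelled, so p-values measure the spread between these arrays, which may be technical.

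Lysosomes degrade proteins, glycans and lipids with hydrolases that work at acid pH, and the vacuolar proton pump keeps the lumen acid. Autophagy delivers cytoplasm to the lysosome in autophagosomes. TFEB and TFE3 are transcription factors that are held in the cytoplasm when nutrients are plentiful and move to the nucleus under starvation, where they bind a motif with the core CACGTG in the promoters of many lysosomal genes. Their activity is set mostly by phosphorylation and location, which an mRNA array does not measure.

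The motif was looked for in the RefSeq promoters (assembly GRCh38.p14) from 250 bases before to 50 bases after each gene's start, for the 23 of 34 genes with an entry. CACGTG, which reads the same on both strands, stood in 7 of the 23 (30.4%), in 21 of 109 other lysosome and autophagy genes (19.3%) and in 7.43% of 27305 promoters of this length. The longer form TCACGTG, on either strand, which always overlaps the core, stood in the same share of the 23 (30.4%), in 18.3% of the other lysosome and autophagy genes and in 3.82% of all promoters. The 7 genes were LAMP1, CTSA, CTSD, NEU1, GAA, MCOLN1 and ATP6V0D1. A match is a run of letters and not a measured binding site.

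Promoters are printed for the 5 motif-bearing genes that passed the test of NSC12 against DMSO at 6 h or 12 h. The test is limma's, with p adjusted over all genes and under 0.05. At 12 h MCOLN1 and GAA rose while LAMP1 and CTSD fell, and NEU1 rose at 6 h. Of these calls only that of MCOLN1 held under all 20 alternative ways of processing. Those of LAMP1 (adjusted p = 0.151), GAA (0.162) and NEU1 (0.788) were lost when arrays were only centred on their medians. That of CTSD was lost without NSC12 12 h replicate 3 (0.192). The promoters are written 5′ to 3′ on the gene's strand, with CACGTG in capitals. They lie at chr13:113296989-113297288 on the plus strand (LAMP1, 6 copies), chr19:7522374-7522673 on the plus strand (MCOLN1, 2 copies), chr17:80101331-80101630 on the plus strand (GAA, 2 copies), chr11:1763878-1764177 on the minus strand (CTSD, 1 copy) and chr6:31862772-31863071 on the minus strand (NEU1, 1 copy).
LAMP1: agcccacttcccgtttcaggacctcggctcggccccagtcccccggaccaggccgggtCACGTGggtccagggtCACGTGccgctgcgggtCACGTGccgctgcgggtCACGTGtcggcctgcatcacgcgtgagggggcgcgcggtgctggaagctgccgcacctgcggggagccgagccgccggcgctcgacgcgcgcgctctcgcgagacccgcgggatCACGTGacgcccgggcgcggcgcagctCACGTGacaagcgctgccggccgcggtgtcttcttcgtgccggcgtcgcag
MCOLN1: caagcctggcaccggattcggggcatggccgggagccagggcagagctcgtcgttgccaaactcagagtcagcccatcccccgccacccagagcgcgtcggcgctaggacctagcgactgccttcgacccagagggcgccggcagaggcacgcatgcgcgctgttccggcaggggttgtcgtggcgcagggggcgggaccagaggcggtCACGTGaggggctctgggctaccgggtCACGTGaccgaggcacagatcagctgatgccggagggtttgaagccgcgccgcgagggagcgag
GAA: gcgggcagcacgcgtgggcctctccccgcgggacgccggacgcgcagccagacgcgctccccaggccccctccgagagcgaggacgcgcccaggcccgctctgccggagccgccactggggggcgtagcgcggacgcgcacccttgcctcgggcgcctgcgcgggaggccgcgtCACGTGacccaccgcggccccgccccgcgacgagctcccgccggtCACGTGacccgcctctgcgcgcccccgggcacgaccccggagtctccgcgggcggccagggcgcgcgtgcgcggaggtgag
CTSD: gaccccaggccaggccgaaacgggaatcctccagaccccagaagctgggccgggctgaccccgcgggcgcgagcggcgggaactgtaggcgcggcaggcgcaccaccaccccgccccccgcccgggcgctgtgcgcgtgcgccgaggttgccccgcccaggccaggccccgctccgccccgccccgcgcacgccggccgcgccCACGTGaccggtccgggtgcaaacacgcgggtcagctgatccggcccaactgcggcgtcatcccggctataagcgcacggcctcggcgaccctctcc
NEU1: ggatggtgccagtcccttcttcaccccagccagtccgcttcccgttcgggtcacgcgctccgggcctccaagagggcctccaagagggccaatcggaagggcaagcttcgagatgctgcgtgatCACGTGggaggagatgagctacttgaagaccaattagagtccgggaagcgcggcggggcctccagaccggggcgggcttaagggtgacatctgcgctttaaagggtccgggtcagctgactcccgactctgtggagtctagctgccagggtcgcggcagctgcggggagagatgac

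Of the 3 membrane genes, LAMP1, with the most copies of the motif, fell at 12 h and MCOLN1, with 2 copies, rose. The remaining membrane gene, LAMP2, had no promoter entry and did not pass on its brightest probe. A link between copies and direction was not tested. Of the 7 genes with the motif, 2 rose, 2 fell and 3 did not pass the test at 12 h, where 13.6% of all genes rose and 15.2% fell. Of the 16 genes whose promoter lacked it, 2 rose, 6 fell and 8 did not pass. The 11 genes with no promoter entry held 3 that fell and 8 that did not pass.

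Levels are log2 of quantile normalized intensities, and a change is the NSC12 mean minus the DMSO mean at the same time on that scale. A gene is said to have risen or fallen where limma's adjusted p (Benjamini-Hochberg over all 20045 genes) was under 0.05. Mean deposited intensity per array ran from 347 to 634, both in the DMSO 6 h group, and arrays of a group correlated at 0.993 to 0.997. A background level of 6.97 was set from 371 olfactory receptor genes, and all 34 genes lay above it in at least 1 group, as did 63.0% of all genes. Of the markers of the labelled cell type, 8 of 8 plasma cell genes lay above background in at least 1 group. The mean level over this list was 10.43 to 10.45 in NSC12 12 h and 10.51 to 10.77 on the arrays of the other groups. Of the 8, CD38 exceeded background in only 2 groups and SLAMF7 lay near it, at group means of 6.97 to 7.28. Of markers of other cells, 7 of 12 myeloid, 2 of 9 T and NK cell and 3 of 10 stromal and endothelial genes exceeded background in at least 1 group. The mean of these lists ran from 6.89 to 7.002 (myeloid), 6.83 to 6.89 (T and NK cell) and 6.89 to 6.96 (stromal and endothelial) over the 12 arrays.

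With NSC12 the group moved in both directions, and mostly at 12 h. At 6 h NEU1, SGSH and ATP6V1H rose and GLB1, PSAP, ATP6V1B2 and ULK1 fell, while 27 of 34 did not pass the test. At 12 h CTSH, GAA, MCOLN1 and GABARAPL1 rose, 11 fell and 19 did not pass. The largest falls at 12 h were those of ATP6V1B2, ULK1 and PSAP, each by over a log2 unit, and the largest rise was that of MCOLN1, by 0.71. GLB1, PSAP, ATP6V1B2 and ULK1 fell at both times, no gene passed in opposite directions, and 16 genes passed at neither time.

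The share of the 34 that rose at 6 h was 8.82%, against 5.56% of all genes and 8.69% of genes above background. The share that fell at 6 h was 11.8%, against 7.51% of all genes and 11.8% of genes above background. At 12 h 11.8% rose, against 13.6% of all genes and 21.4% of genes above background. At 12 h 32.4% fell, against 15.2% of all genes and 23.9% of genes above background. The 6 h shares thus lie near those of genes above background. The 12 h shares were not tested against those of other genes. The median change of the 34 was -0.01 at 6 h and -0.04 at 12 h, against 0.00 over all genes at both times. When arrays were only centred on their medians, the share of rises among all called genes went from 42.5% to 18.8% at 6 h and from 47.3% to 36.3% at 12 h, and of the 34 genes 0 rose and 4 fell at 6 h and 3 rose and 5 fell at 12 h. The 4 that then fell at 6 h did not include PSAP (limma's adjusted p = 0.282), so they are not the same 4 as after quantile normalization. The 5 that fell at 12 h with median centring are 14.7% of the 34, against 13% of all genes. The higher share of falls at 12 h is thus not seen under that scaling.

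**Figure D1:**
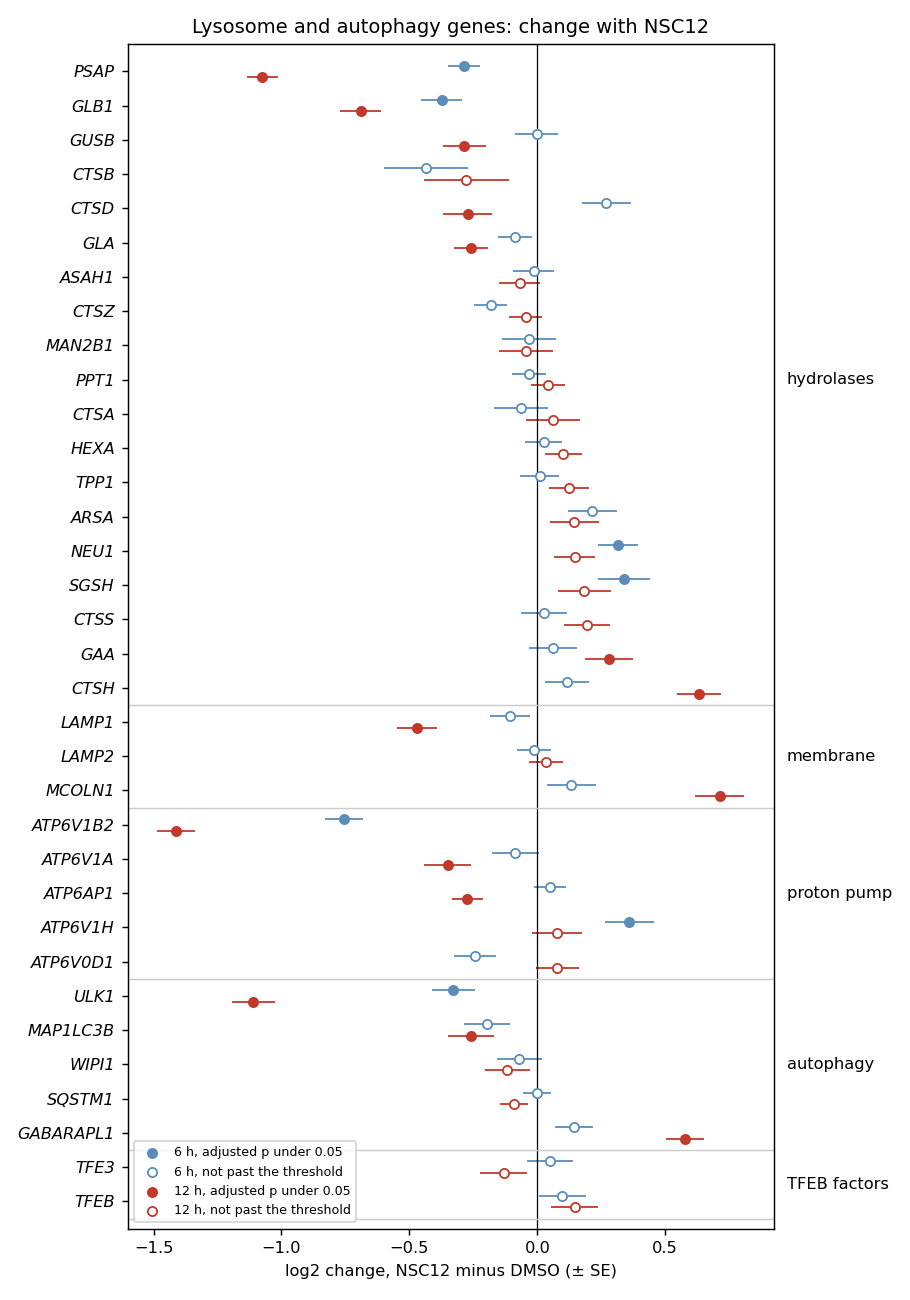
Change of each of the 34 genes with NSC12, grouped by role, as the log2 difference from DMSO on the x axis with its standard error (3 arrays against 3); blue is 6 h, red is 12 h, and filled points passed the test. The red points spread from -1.41 for ATP6V1B2 to 0.71 for MCOLN1, and within each role other than the 2 transcription factors at least 1 gene passed the test at 12 h.

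Among the enzymes of the lumen and their activators, 2 of 19 rose and 2 fell at 6 h, and 2 rose and 5 fell at 12 h. The 6 h counts are 10.5% and 10.5% of the 19, against 8.69% and 11.8% of genes above background. The 12 h counts are 10.5% and 26.3%, against 21.4% and 23.9%. The changes of the 19 ran from -0.44 to 0.34 at 6 h and from -1.07 to 0.63 at 12 h. PSAP, which encodes the precursor of the saposins that present sphingolipids to the enzymes, had levels of 12.75, 12.76 and 12.76 in DMSO 6 h and 12.53, 12.35 and 12.52 in NSC12 6 h. At 12 h it stood at 12.84, 12.91 and 12.89 with DMSO and 11.78, 11.82 and 11.82 with NSC12. The NSC12 arrays lay below the DMSO arrays at both times without overlap. The change of PSAP was -0.29 ± 0.06 (SE, n = 3 per group; adjusted p = 0.00238) at 6 h and -1.07 ± 0.06 (adjusted p = 1.22e-11), a 2.11-fold fall, at 12 h. The second PSAP probe, about as bright, changed by -0.20 at 6 h, which did not pass (limma's adjusted p = 0.196 over all probes), and by -0.99 at 12 h. The mean of the PSAP probes changed by -0.24 at 6 h (adjusted p = 0.0213). With median centring the 6 h change of the brightest probe was -0.34 (adjusted p = 0.282).

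GLB1, the lysosomal beta-galactosidase, had levels of 9.80, 10.05 and 9.89 in DMSO 6 h against 9.50, 9.49 and 9.64 in NSC12 6 h. The 12 h levels were 10.06, 10.13 and 10.01 with DMSO against 9.39, 9.40 and 9.34 with NSC12. No NSC12 array reached a DMSO array of its time. It fell, with changes of -0.37 ± 0.08 (SE; adjusted p = 0.00226) at 6 h and -0.69 ± 0.08 (adjusted p = 5.13e-07), 1.61-fold, at 12 h. Of its other probes, 1 above background changed by -0.48 at 12 h and 1 below background by -0.06, so the mean of all GLB1 probes changed by -0.23 at 6 h (adjusted p = 0.0239) and -0.41 at 12 h (adjusted p = 9.63e-05).

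CTSH, the cysteine protease cathepsin H, went the other way. Its levels at 12 h were 9.55, 9.65 and 9.54 with DMSO and 10.30, 10.16 and 10.18 with NSC12, whereas at 6 h those with DMSO (9.61, 9.74 and 9.40) and with NSC12 (9.80, 9.67 and 9.63) overlapped. The 12 h change was 0.63 ± 0.09 (SE; adjusted p = 5.13e-06), 1.55-fold, and that at 6 h was 0.12 (adjusted p = 0.476). A dimmer second probe of CTSH changed by 0.33 at 12 h. The other rise at 12 h was small: GAA, the acid alpha-glucosidase that degrades glycogen, stood at 7.58, 7.40 and 7.17 with DMSO and 7.65, 7.70 and 7.64 with NSC12. The lowest NSC12 array of GAA lay just above the highest DMSO array. The change of GAA was 0.28 ± 0.09 (SE; adjusted p = 0.027), and its second probe gave 0.34. Leaving out DMSO 12 h replicate 3 brought the GAA change to 0.17 (adjusted p = 0.202), and the call was also lost under median centring (adjusted p = 0.162) and without any 1 of 4 other 12 h arrays (adjusted p between 0.0533 and 0.0844).

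CTSD, the aspartic protease cathepsin D, had levels of 8.75, 8.91 and 9.01 in DMSO 6 h and 9.06, 9.18 and 9.25 in NSC12 6 h, all 3 NSC12 arrays above the DMSO arrays. At 12 h the DMSO levels were 9.02, 8.82 and 8.74 and the NSC12 levels 8.73, 8.59 and 8.44, the highest NSC12 array just under the lowest DMSO array. The change of CTSD was 0.27 ± 0.10 (SE; adjusted p = 0.0678) at 6 h, which missed the threshold, and -0.27 ± 0.10 (adjusted p = 0.0342) at 12 h. The 12 h call of CTSD was lost with array brightness as a covariate (adjusted p = 0.0537) and without any 1 of 4 of the 12 h arrays, the weakest being 0.192 without NSC12 12 h replicate 3, and under median centring the change was -0.42 (adjusted p = 0.0395).

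GUSB, the beta-glucuronidase, and GLA, the alpha-galactosidase, fell by less at 12 h. GUSB stood at 11.21, 10.84 and 11.06 with DMSO and 10.81, 10.78 and 10.66 with NSC12, a change of -0.29 ± 0.08 (SE; adjusted p = 0.0115). The GUSB call was lost without DMSO 12 h replicate 1 (adjusted p = 0.0871), without NSC12 12 h replicate 3 (0.0743) and under median centring (0.357). GLA stood at 11.34, 11.42 and 11.31 with DMSO and 11.14, 11.09 and 11.05 with NSC12, a change of -0.26 ± 0.07 (SE; adjusted p = 0.00425). The GLA call was lost under median centring (adjusted p = 0.53). In both genes every NSC12 array lay below every DMSO array.

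NEU1 and SGSH rose at 6 h and did not pass at 12 h. NEU1, the lysosomal sialidase, had levels of 9.67, 9.76 and 9.79 in DMSO 6 h and 10.03, 10.12 and 10.005 in NSC12 6 h, a change of 0.32 ± 0.08 (SE; adjusted p = 0.00914). At 12 h its DMSO arrays (10.20, 10.02 and 9.93) overlapped those with NSC12 (10.13, 10.25 and 10.21), and the change was 0.15 (adjusted p = 0.21). The 6 h call of NEU1 was lost without NSC12 6 h replicate 2 (adjusted p = 0.0561) and under median centring (0.788). SGSH, the sulfamidase of heparan sulfate breakdown, stood at 9.60, 9.66 and 9.93 with DMSO and 10.02, 10.07 and 10.12 with NSC12 at 6 h, a change of 0.34 ± 0.10 (SE; adjusted p = 0.0305). The groups did not overlap, but the SGSH call was lost with brightness as a covariate (adjusted p = 0.0976), under median centring (0.723) and without any 1 of 5 of the 6 h arrays, the weakest being 0.143 without DMSO 6 h replicate 1. The change of SGSH at 12 h was 0.18 (adjusted p = 0.22).

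The other 10 genes of this role passed at neither time: CTSA, CTSB, CTSS, CTSZ, HEXA, TPP1, PPT1, ARSA, ASAH1 and MAN2B1, with changes between -0.44 and 0.22 at 6 h and between -0.28 and 0.19 at 12 h. CTSB, the cysteine protease cathepsin B, had the largest spread. Its levels were 9.82, 9.39 and 9.19 in DMSO 6 h, 9.03, 9.16 and 8.91 in NSC12 6 h, 9.40, 9.65 and 10.32 in DMSO 12 h and 9.42, 9.63 and 9.48 in NSC12 12 h. DMSO 12 h replicate 3 stood above all other arrays. The change of CTSB was -0.44 (95% interval -0.78 to -0.09, adjusted p = 0.0939) at 6 h and -0.28 (-0.62 to 0.07, adjusted p = 0.26) at 12 h. Without that array the 12 h change of CTSB was -0.01 (adjusted p = 0.972), and its dimmer second probe changed by -0.41 at 12 h (adjusted p = 0.0308 over all probes, of which 8.96% rose and 9.45% fell). CTSZ, cathepsin Z, lay close to background, at 6.75 to 7.10 over the 12 arrays. HEXA and ASAH1 were also dim, at group means of 7.21 to 7.38 and 7.25 to 7.33.

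**Figure D2:**
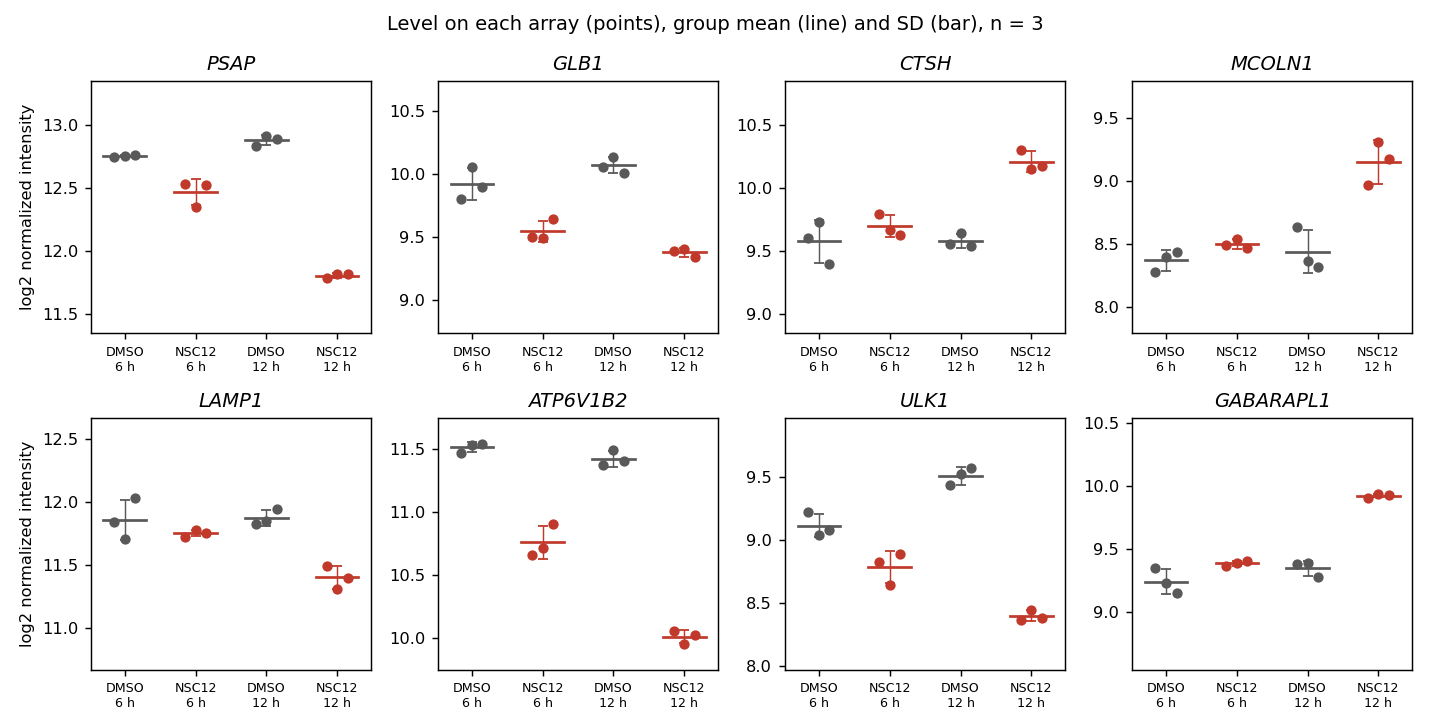
Level of 8 genes on each array (points, log2 normalized intensity), with the group mean (line) and SD (bar), 3 arrays per group, DMSO in grey and NSC12 in red, all panels spanning the same range on the y axis. PSAP, GLB1, ATP6V1B2 and ULK1 are lower with NSC12 at 6 h and lower again at 12 h, while CTSH, MCOLN1 and GABARAPL1 are higher at 12 h. The NSC12 arrays of MCOLN1 and GABARAPL1 lie slightly above DMSO at 6 h too, where neither gene passed the test.

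Of the 3 membrane genes, none passed at 6 h, and at 12 h 1 rose and 1 fell. Of genes above background 21.4% rose and 23.9% fell at 12 h. MCOLN1, the calcium channel of the lysosomal membrane, stood at 8.63, 8.36 and 8.32 with DMSO and 8.97, 9.31 and 9.18 with NSC12 at 12 h. The NSC12 arrays were all higher, and the rise was 0.71 ± 0.10 (SE; adjusted p = 3.97e-06), 1.64-fold. At 6 h its levels were 8.28, 8.40 and 8.44 against 8.50, 8.54 and 8.47, also without overlap, and the change of 0.13 missed the threshold (adjusted p = 0.465). LAMP1, a heavily glycosylated protein that lines the lysosomal membrane, stood at 11.82, 11.84 and 11.94 with DMSO and 11.49, 11.31 and 11.40 with NSC12 at 12 h. It fell by 0.47 ± 0.08 (SE; adjusted p = 4.39e-05), 1.39-fold, and with median centring the change of -0.36 did not pass (adjusted p = 0.151). At 6 h the LAMP1 arrays overlapped, at 11.84, 11.71 and 12.02 with DMSO and 11.72, 11.77 and 11.75 with NSC12.

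LAMP2, its close relative, had 6 probes, which gave different changes. The brightest stood at 11.63, 11.71 and 11.77 with DMSO and 11.75, 11.73 and 11.74 with NSC12 at 12 h, a change of 0.03 (95% interval -0.10 to 0.17, adjusted p = 0.807). The platform assigns 3 probes, the brightest among them, to the LAMP2B transcript, and these changed by 0.03, 0.06 and -0.23. It assigns 2 to the LAMP2A transcript, whose protein is the receptor of chaperone-mediated autophagy, and these changed by 0.22 and 0.43. The stronger LAMP2A probe stood at 9.49, 9.62 and 9.52 with DMSO and 9.92, 9.91 and 10.07 with NSC12, every NSC12 array higher. In limma's fit over all 47319 probes, where 8.96% rose and 9.45% fell at 12 h, this probe rose (adjusted p = 0.00209), the other LAMP2A probe did not pass (adjusted p = 0.0735), and the dimmest LAMP2 probe, assigned to neither, fell by 0.32 (adjusted p = 0.0093). Which exon each probe reads was not checked, and the 6 probes were compared after their values had been seen.

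**Figure D3:**
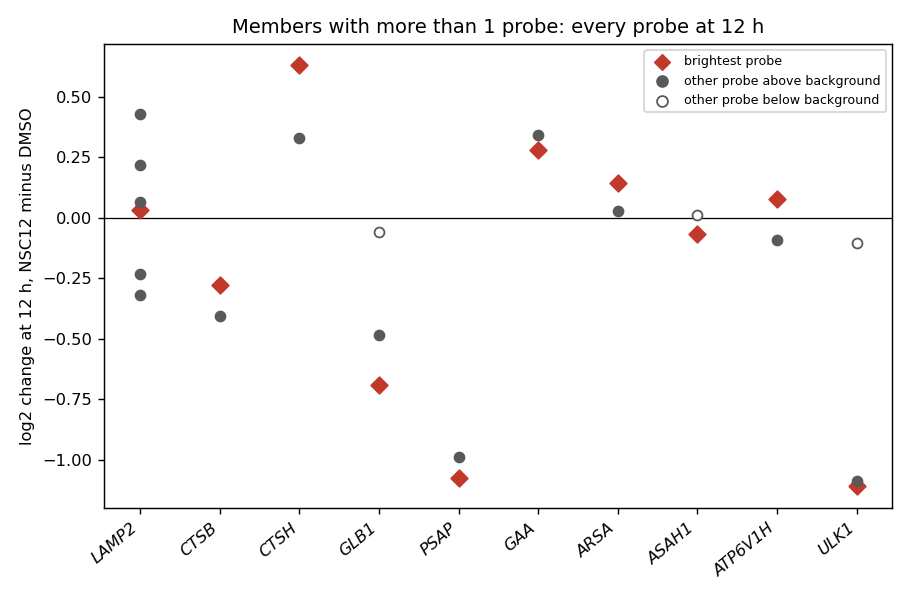
Change at 12 h (log2, NSC12 minus DMSO, 3 arrays per group) of every probe of the 10 genes with more than 1 probe; red diamonds are the brightest probe, filled circles other probes above background and open circles probes below it. The probes of LAMP2 spread from -0.32 to 0.43, whereas those of PSAP lie at -1.07 and -0.99.

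The proton pump pairs a cytosolic sector that splits ATP with a membrane sector that carries the protons. Of its 5 genes in the group, 1 rose and 1 fell at 6 h and 3 fell at 12 h. Among genes above background 8.69% rose and 11.8% fell at 6 h, and 21.4% rose and 23.9% fell at 12 h. ATP6V1B2, a subunit of the ATP-splitting ring, stood at 11.47, 11.53 and 11.54 with DMSO and 10.66, 10.72 and 10.91 with NSC12 at 6 h. At 12 h it stood at 11.37, 11.49 and 11.40 with DMSO and 10.05, 9.95 and 10.02 with NSC12. The groups did not overlap at either time, and the NSC12 12 h arrays lay below the NSC12 6 h arrays. The change of ATP6V1B2 was -0.76 ± 0.07 (SE; adjusted p = 1.83e-07) at 6 h and -1.41 ± 0.07 (adjusted p = 2.9e-12), a 2.66-fold fall, at 12 h, the largest fall of the 34 genes at either time.

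The catalytic subunit of the same ring, ATP6V1A, stood at 11.64, 11.55 and 11.92 with DMSO and 11.26, 11.29 and 11.50 with NSC12 at 12 h. It fell by 0.35 ± 0.09 (SE; adjusted p = 0.00499). ATP6AP1, an accessory protein of the pump, stood at 12.62, 12.74 and 12.64 with DMSO and 12.43, 12.33 and 12.41 with NSC12, and fell by 0.27 ± 0.06 (SE; adjusted p = 0.00146). Neither gene's groups overlapped at 12 h, and both calls were lost under median centring (adjusted p = 0.399 and 0.917). ATP6V1H, which couples the 2 sectors, rose at 6 h by 0.36 ± 0.10 (SE; adjusted p = 0.0136), from 9.08, 9.03 and 8.78 to 9.26, 9.42 and 9.28. The ATP6V1H call was lost without DMSO 6 h replicate 3 (adjusted p = 0.0933), without NSC12 6 h replicate 2 (0.0836) and under median centring (0.71). The mean of the ATP6V1H probes rose by 0.20 at 6 h (adjusted p = 0.0325), and at 12 h the change was 0.08 (adjusted p = 0.664). ATP6V0D1, of the membrane sector, changed by -0.24 at 6 h (adjusted p = 0.0564) and 0.08 at 12 h (adjusted p = 0.588).

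A wider list of the pump held 16 further genes, of which none rose and 3 fell at 6 h, and 4 rose and 5 fell at 12 h. The 12 h counts are 25.0% and 31.2% of the 16, of which 13 lay above background in at least 1 group. At 12 h 13.6% of all genes rose and 15.2% fell, against 21.4% and 23.9% of genes above background. The 6 h falls are 18.8% of the 16, against 7.51% of all genes and 11.8% of genes above background. The shares of the 16 were not tested against those of other genes. ATP6V0A1, the a1 subunit of the membrane sector, changed by -1.24 at 6 h (adjusted p = 7.75e-11) and by -1.62 at 12 h (adjusted p = 4.34e-13), a 3.08-fold fall. Its relative ATP6V0A2 changed by -0.53 (adjusted p = 5.98e-05) and -0.77 (adjusted p = 1.05e-07). ATP6V1G1, of the stalk of the cytosolic sector, changed by 0.12 at 6 h (adjusted p = 0.402) and rose by 0.55 at 12 h (adjusted p = 7.15e-06). Subunits of 1 pump thus moved in both directions on the mRNA level.

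**Figure D4:**
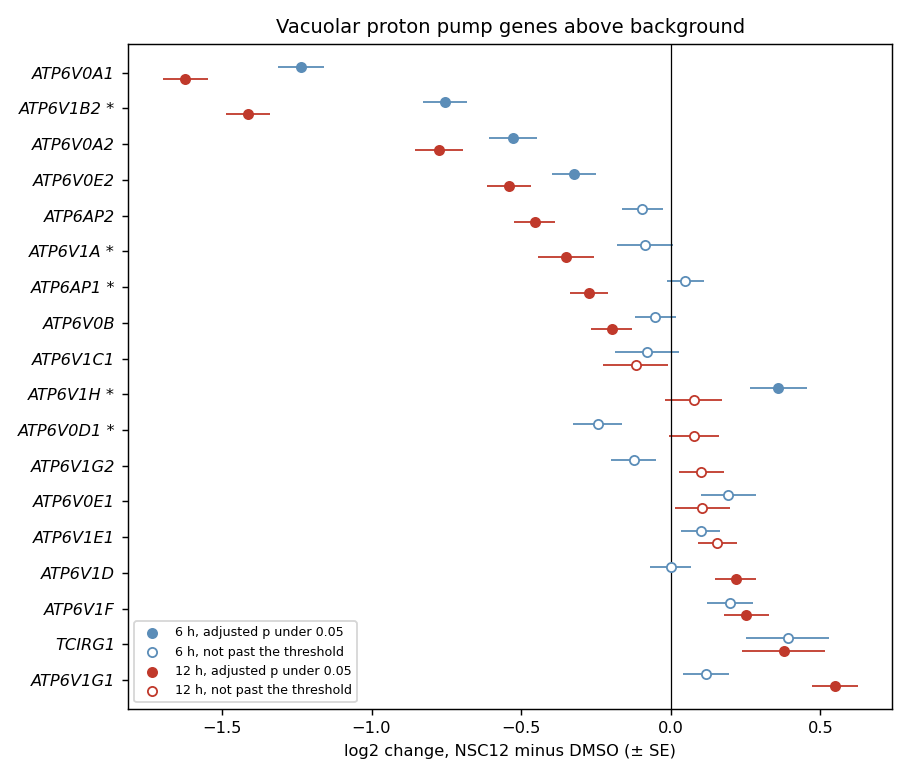
Change with NSC12 of the proton pump genes above background, as the log2 difference from DMSO with its standard error (3 arrays against 3), blue at 6 h and red at 12 h, filled where the test was passed; stars mark the 5 genes of the group of 34. Changes at 12 h run from -1.62 for ATP6V0A1 to 0.55 for ATP6V1G1.

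Among the 5 autophagy genes, 1 fell at 6 h, and at 12 h 1 rose and 2 fell. Of genes above background 11.8% fell at 6 h, and 21.4% rose and 23.9% fell at 12 h. ULK1, the kinase that starts autophagosome formation, stood at 9.22, 9.04 and 9.08 in DMSO 6 h and 8.82, 8.64 and 8.89 in NSC12 6 h. At 12 h it stood at 9.43, 9.52 and 9.57 with DMSO and 8.36, 8.45 and 8.38 with NSC12. The groups did not overlap at either time, and the NSC12 12 h arrays also lay below the DMSO 6 h arrays. ULK1 fell, with changes of -0.33 ± 0.08 (SE; adjusted p = 0.00881) at 6 h and -1.11 ± 0.08 (adjusted p = 8.12e-10), 2.16-fold, at 12 h. Its second probe changed by -1.09 at 12 h, and another, below background, by -0.10, and the mean of the ULK1 probes changed by -0.21 at 6 h (adjusted p = 0.0353). The 6 h call of ULK1 was lost without DMSO 6 h replicate 1 (adjusted p = 0.0589) and without NSC12 6 h replicate 2 (0.0728).

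GABARAPL1 and MAP1LC3B encode relatives of yeast Atg8, the proteins that are coupled to lipid on the autophagosome membrane, and they went opposite ways at 12 h. GABARAPL1 stood at 9.38, 9.39 and 9.28 with DMSO and 9.91, 9.94 and 9.93 with NSC12, and rose by 0.58 ± 0.07 (SE; adjusted p = 2.52e-06), 1.49-fold. Its change at 6 h was 0.14 (adjusted p = 0.256), although the lowest NSC12 array (9.36) lay just above the highest DMSO array (9.35). MAP1LC3B stood at 9.89, 9.87 and 9.72 with DMSO and 9.49, 9.61 and 9.60 with NSC12, and fell by 0.26 ± 0.09 (SE; adjusted p = 0.0336). Neither gene's groups overlapped at 12 h. The 6 h change of MAP1LC3B was -0.20 (adjusted p = 0.187). Its 12 h call was lost under median centring (adjusted p = 0.159), with brightness as a covariate (0.0518) and without any 1 of 5 of the 12 h arrays, the weakest being 0.128 without NSC12 12 h replicate 1.

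SQSTM1, the autophagy receptor also called p62, was the brightest of the 34 genes. Its levels were 13.80, 13.81 and 13.94 in DMSO 6 h, 13.80, 13.85 and 13.89 in NSC12 6 h, 13.76, 13.81 and 13.82 in DMSO 12 h and 13.65, 13.71 and 13.75 in NSC12 12 h. The NSC12 12 h arrays lay slightly below the others, and the changes were 0.00 (95% interval -0.11 to 0.11, adjusted p = 0.999) and -0.09 (-0.21 to 0.02, adjusted p = 0.253). WIPI1, which binds the lipids of the forming autophagosome, stood at 9.15, 9.30 and 9.21 in DMSO 6 h, 9.14, 9.24 and 9.08 in NSC12 6 h, 9.76, 9.58 and 9.45 in DMSO 12 h and 9.36, 9.54 and 9.54 in NSC12 12 h. NSC12 and DMSO arrays of WIPI1 overlapped at both times, with changes of -0.07 (adjusted p = 0.715) and -0.12 (adjusted p = 0.391).

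Neither of the 2 transcription factors passed the test. TFEB lay near background, at 6.89, 7.07 and 7.08 in DMSO 6 h, 7.17, 7.07 and 7.09 in NSC12 6 h, 7.36, 7.08 and 6.98 in DMSO 12 h and 7.35, 7.12 and 7.39 in NSC12 12 h. Its arrays overlapped at both times, and the changes were 0.10 (95% interval -0.09 to 0.29, adjusted p = 0.607) and 0.15 (-0.05 to 0.34, adjusted p = 0.293). TFE3 stood at 7.72, 7.66 and 7.87 in DMSO 6 h, 7.66, 7.95 and 7.78 in NSC12 6 h, 7.92, 7.93 and 7.78 in DMSO 12 h and 7.65, 7.87 and 7.71 in NSC12 12 h. Its NSC12 arrays overlapped those with DMSO at both times. The changes of TFE3 were 0.05 (95% interval -0.14 to 0.24, adjusted p = 0.815) and -0.13 (-0.32 to 0.06, adjusted p = 0.34). No deposited intensity lay under 69.5 on any array, so an additive background appears to be left in, which would make changes of such dim genes look smaller.

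Whether the response differed between the times was tested as the 12 h change minus the 6 h change. This difference was higher for CTSH, MCOLN1 and GABARAPL1 and lower for 6 genes (LAMP1, CTSD, PSAP, ATP6V1B2, ATP6AP1 and ULK1), 8.82% and 17.6% of the 34 against 4.65% and 5.77% of all genes and 7.31% and 9.03% of genes above background. It was -0.79 ± 0.09 (SE; adjusted p = 7.48e-06) for PSAP, -0.78 ± 0.12 (adjusted p = 0.00018) for ULK1 and -0.66 ± 0.10 (adjusted p = 0.000323) for ATP6V1B2. CTSD showed a difference of -0.54 ± 0.13 (SE; adjusted p = 0.0107), from arrays above DMSO at 6 h to arrays below it at 12 h. For GLB1, which fell at both times, the difference of -0.32 did not pass (adjusted p = 0.0816). With median centring, where the share of higher among called genes went from 44.7% to 76.1%, the difference passed for 1 of these 9 genes, ULK1.

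In DMSO alone, from 6 h to 12 h, ULK1 rose by 0.39 ± 0.08 (SE; adjusted p = 0.0389) and no other of the 34 passed, against 0.249% of all genes higher and 0.150% lower. WIPI1 changed by 0.38 (adjusted p = 0.0656). The 12 h fall of ULK1 is thus measured against a DMSO level that had itself risen, although the ULK1 rise was lost under median centring (adjusted p = 0.814), as the mean of its probes (0.107) and without any 1 of 6 arrays, the weakest being 0.223 without DMSO 12 h replicate 2. With median centring the share of higher among called genes in this comparison went from 62.5% to 92.9%, and with cyclic loess to 76.5%.

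Beyond the 34, a list of 146 other lysosome and autophagy genes was read, of which 133 were measured. In this list 6 rose and 23 fell at 6 h, and 21 rose and 51 fell at 12 h, with a median change of -0.03 and -0.06. The risen and fallen genes were 4.51% and 17.3% of the list at 6 h and 15.8% and 38.3% at 12 h. Of all genes 5.56% rose and 7.51% fell at 6 h, and 13.6% rose and 15.2% fell at 12 h. Of genes above background the shares were 8.69% and 11.8% at 6 h, and 21.4% and 23.9% at 12 h. Of the 133 genes, 124 lay above background in at least 1 group. These shares were not tested against each other. Among 19 membrane genes 3 rose and 11 fell at 12 h (15.8% and 57.9%). CLCN7, the chloride and proton exchanger of the lysosome, changed by -1.23 (adjusted p = 6.92e-12), NPC1, which exports cholesterol, by -1.01 (adjusted p = 4.97e-10) and SCARB2, the carrier of glucocerebrosidase, by -0.82 (adjusted p = 2.46e-09). Among 9 genes of enzyme delivery 1 rose and 6 fell at 12 h (11.1% and 66.7%). IGF2R, the receptor for mannose 6-phosphate, changed by -1.21 (adjusted p = 7.02e-11). SUMF1, which activates sulfatases, changed by -1.07 (adjusted p = 4.77e-09) and the sorting adaptor GGA2 by -0.91 (adjusted p = 6.15e-09).

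Among 26 other hydrolases 2 rose and 9 fell at 12 h (7.69% and 34.6%, against 21.4% and 23.9% of genes above background). CTSK changed by -0.54 (adjusted p = 1.27e-05), LGMN by -0.50 (adjusted p = 3.38e-05) and FUCA1 by -0.49 (adjusted p = 3.81e-05). Falls of CTSK and FUCA1 were already present at 6 h, at -0.45 (adjusted p = 0.00037) and -0.51 (adjusted p = 7.38e-05). Of 45 other autophagy genes 8 rose and 17 fell at 12 h (17.8% and 37.8%). TAX1BP1, an autophagy receptor, rose by 0.66 (adjusted p = 1.09e-06), while FYCO1, which links autophagosomes to kinesin, changed by -0.70 (adjusted p = 2.14e-07) and TMEM41B, a lipid scramblase, by -0.66 (adjusted p = 2.49e-06). Of 18 genes that are relatives of TFEB or regulators of the TFEB factors 3 rose and 3 fell at 12 h. These are 16.7% and 16.7%, below the 21.4% and 23.9% of genes above background. MLST8, a component of the mTOR complexes, rose by 0.67 (adjusted p = 6.05e-06) and FLCN, which acts on the Rag GTPases, by 0.58 (adjusted p = 1.41e-05), while FNIP1, the partner of FLCN, fell by 0.54 (adjusted p = 2.63e-05). As the mean of their probes FLCN changed by 0.26 (adjusted p = 0.000695) and FNIP1 by -0.28 (adjusted p = 0.00127). Bulk RNA cannot tell fewer cells with a transcript apart from less transcript per cell, and no protein, pH or autophagic flux was measured.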

How the data were processed

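The deposited value table holds 1 linear intensity per probe and array for 47319 probes, and per the labels biotin-labelled cRNA from total RNA was hybridised to Illumina arrays. Which scanner software or correction was used is not given in the sources used here, and the arrays' unequal means and medians were taken to mean that the values are not normalized. Probes were named from the platform annotation: 30111 carry 1 gene symbol, 8 several and 17200 none, and 30072 were updated by Entrez ID. Intensities were quantile normalized and taken to log2 in R 4.3.3, and each gene was read from its brightest probe by the mean over 12 arrays.

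limma 3.58.1 (lmFit, eBayes with an intensity trend) was fitted with 1 mean per group over all 12 arrays, and p-values were adjusted by Benjamini-Hochberg over 20045 genes at a threshold of 0.05; the code was tested on simulated data. The background level is the 95th percentile over 371 olfactory receptor genes. Precision is limited by the 3 arrays per group. The members, lists and tests were chosen with earlier results of these data known. Values on every array of 1 or both times were given for the members past the threshold with the largest changes, up to 4 per role and time. The same was done for 12 members fixed by name. GAA, GLA, CTSB, CTSZ and ATP6V0D1 fall outside this rule and were described after their values were seen. Up to 3 genes per role of the wider list were named. Alternatives were other scalings (median centring, cyclic loess, normexp background), the mean of probes, only genes above background, no trend, array brightness, a replicate block and leaving out each array. Deviations of same-numbered arrays correlated at -0.47 to 0.17, with 2 of 18 pairs over 0.1, so the numbers were not taken to pair the samples. Promoters are RefSeq's, GRCh38.p14; figures were drawn with matplotlib 3.10.9.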

Additional observations from a re-analysis of the deposited data

Results flagged for a closer look

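For 9 genes the response to NSC12 differed between the times by limma's test of the difference itself (12 h change minus 6 h change, log2, adjusted over all genes). It was lower for PSAP at -0.79 (adjusted p = 7.48e-06), ULK1 at -0.78 (adjusted p = 0.00018), ATP6V1B2 at -0.66 (adjusted p = 0.000323), CTSD at -0.54 (adjusted p = 0.0107), LAMP1 at -0.36 (adjusted p = 0.0344) and ATP6AP1 at -0.32 (adjusted p = 0.0197). It was higher for MCOLN1 at 0.58 (adjusted p = 0.00678), CTSH at 0.51 (adjusted p = 0.00788) and GABARAPL1 at 0.43 (adjusted p = 0.00961). With median centring only ULK1 passed. The sign of all 9 was kept, but the difference shrank to -0.03 for ATP6AP1 (adjusted p = 0.979) and to -0.18 for LAMP1 (adjusted p = 0.847). Mean intensity of the arrays was 428 ± 61.6 (SD, n = 3) in NSC12 6 h against 521 ± 153 in DMSO 6 h, and 588 ± 36.0 in NSC12 12 h against 538 ± 77.3 in DMSO 12 h, and the part of brightness in these differences was tested only as a covariate, under which LAMP1 no longer passed (-0.29, adjusted p = 0.116). LAMP1 also lost this call without any 1 of 9 arrays, CTSH with its probes averaged (0.36, adjusted p = 0.0616), and ATP6AP1 under cyclic loess (-0.24, adjusted p = 0.0958) and without any 1 of 4 arrays.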

How the results depend on the processing

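No called change of a named gene changed direction under any of the 20 alternatives, though with median centring that of ATP6AP1 at 12 h shrank to -0.04. Under all of them, 2 of 7 calls at 6 h held (GLB1, ATP6V1B2), 7 of 15 at 12 h (CTSH, GLB1, PSAP, MCOLN1, ATP6V1B2, ULK1, GABARAPL1), 1 of 9 for the difference between the times (ULK1) and 0 of 1 in DMSO. With median centring, at 6 h 0 members rose, against 3, and 1470 genes were called, against 2619; at 12 h 5 members fell, against 11; for the difference 0 members were higher, against 3, 1 was lower, against 6, and 364 genes were called, against 2089; in DMSO 0 members rose, against 1, and 14 genes were called, against 80. The single DMSO rise became 0 with the mean of probes, 2 without the intensity trend and 0 with the replicate block (ULK1, adjusted p = 0.0622). The block left 10 members lower at 12 h, CTSD no longer passing (adjusted p = 0.0505), and 5695 genes called there. Leaving out 1 array at a time gave 0 to 4 members higher and 3 to 6 lower at 6 h (0 higher without NSC12 6 h replicate 2; 6 lower also with the mean of probes, genes above background or brightness as a covariate), with 1982 to 2902 genes called. It gave 3 to 8 higher and 8 to 11 lower at 12 h (8 higher without DMSO 12 h replicate 1). In DMSO it gave 0 to 2 higher and 21 to 123 genes called (21 without DMSO 6 h replicate 3 or DMSO 12 h replicate 2, 123 without DMSO 12 h replicate 3). The causes were not tested. TFEB, CTSZ, HEXA and ASAH1 lie near the background level of 6.97, where any change in RNA would show as a smaller change in level.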
